A study of Mus musculus with 10 samples.

Results

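Mediator is the multi-subunit complex that carries signals from DNA-bound transcription factors to RNA polymerase II. Its head and middle modules contact the polymerase, its tail module takes up many activators, the Med14 subunit runs through them as a scaffold, and a separable kinase module of Cdk8 or Cdk19, cyclin C, Med12 and Med13 (or their paralogs Med12l and Med13l) controls how the core meets the polymerase. Med23 is a tail subunit through which the serum-responsive factor Elk1 acts after its phosphorylation. The genes described here are Med23 and 32 other genes of Mediator subunits, 33 of 18193 named genes on the arrays. They were chosen by gene symbol, and each was read from its brightest probe set, judged by the mean of the 10 arrays. All 33 were measured, with 72 probe sets between them, and Med23 had 1 probe set.

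RNA of cultured mouse cells was hybridised to 10 Affymetrix arrays, with 1 array per condition. Mouse embryonic fibroblasts (MEFs) of 9.5-day embryos, grown in medium with 10% serum and immortalised spontaneously, gave 6 arrays: Med23 knockout (KO) cells at 0, 30 and 90 min of serum, and wild-type (WT) cells at the same times. The embryonic fibroblast line 10T1/2 gave 4 arrays: overexpression of MAL (a coactivator of the serum response factor Srf), knockdown of Med23, both treatments, and an untreated control. The deleted part of Med23, the number of lines per genotype and the means of knockdown and overexpression are not described in the labels, and line and genotype cannot be told apart in the MEFs. Values are log2 expression as deposited. Differences between conditions were tested with limma, with arrays that shared every factor but 1 set against each other, since no condition was repeated. The resulting p-values cover the residual spread over the arrays of a fit and not the spread between repeat cultures. A gene is called where its p-value, adjusted over all tested genes, was under 0.05. All 33 Mediator genes passed the filter on low values in every fit.

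Fibroblast markers lay mostly above the array median, and so did some markers of other cell types. Of 10 fibroblast markers, 9 lay above the array median on all KO and on all WT arrays, with Thy1 below it, and all 10 did so on the 10T1/2 arrays. None of 4 embryonic stem cell markers did so in either line, and Epcam was the 1 of 5 epithelial markers that did. Of 4 neural markers, 3 did so on the WT, 2 on the KO and 2 on the 10T1/2 arrays. Of 5 macrophage markers, 2 did so on the WT, 1 on the KO and 1 on the 10T1/2 arrays. Of 5 endothelial markers, 1 did so on the WT, 1 on the KO and 0 on the 10T1/2 arrays.

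Promoter sequence is shown for 3 Mediator genes that differed between KO and WT cells, 2 higher and 1 lower in KO. They are the called genes with an ETS core (CCGGAA), the element that Elk1 and other ETS factors bind, within 150 bases before a RefSeq start. Each line gives those 150 bases from 5′ to 3′ on the plus strand of GRCm38.p6, taken from the RefSeq promoter table, and the capitals mark the ETS core on either strand. In Med10 a core on the minus strand overlaps one on the plus strand, and a further core follows 1 base later. Med7 and Med10 have 2 starts each, and the other start of each had no whole core in the 150 bases before it.
Ccnc, chr4:21727551-21727700: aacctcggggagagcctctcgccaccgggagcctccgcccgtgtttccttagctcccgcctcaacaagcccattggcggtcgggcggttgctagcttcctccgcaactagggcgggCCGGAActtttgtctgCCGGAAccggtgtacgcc
Med7, chr11:46436811-46436960: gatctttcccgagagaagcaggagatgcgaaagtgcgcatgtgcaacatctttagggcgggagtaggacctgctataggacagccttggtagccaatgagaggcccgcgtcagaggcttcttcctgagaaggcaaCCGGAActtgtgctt
Med10, chr13:69809732-69809881: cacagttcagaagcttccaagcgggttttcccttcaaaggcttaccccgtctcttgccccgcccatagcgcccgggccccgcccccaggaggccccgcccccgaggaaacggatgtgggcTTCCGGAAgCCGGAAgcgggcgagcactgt

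The promoter table held 32 windows of 300 bases, from 250 before to 50 after a start, for 28 of the 33 genes. Med7, Med10, Med15 and Med27 had 2 starts each, and those of Med7 and of Med15 overlapped. The table matched no window for Med23, Med8, Med24, Med30 and Cdk19. An ETS core stood in 16 of the 32 windows (50.0%, 14 genes), against 14.9% of the 32851 windows of all genes and 18.7% of those of protein-coding genes. The GC box GGGCGG, which Sp factors bind, stood in 62.5% of the Mediator windows, against 35.7% of all windows and 46.2% of coding ones. The CArG box, the element of Srf, stood in 0 of 32, against 1.63% of all windows. All motifs were read on both strands, and the windows differ in base composition: the median GC content was 57.8% in the Mediator windows, against 52.7% in all windows and 56.3% in coding ones. Among genes that differed between KO and WT, an ETS core stood in 2 of the 7 higher and 3 of the 7 lower genes with a window. A match describes the letters of the window and does not show binding.

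Med23 separated the KO from the WT cells on every array. In KO MEFs it read 3.30 at 0 min, 3.30 at 30 min and 2.91 at 90 min of serum, and the WT MEFs held 7.14, 7.39 and 6.90 at those times (probe set 1452064_at). All 3 KO values lay below the median of their array, so the fold is a bound, with those values raised to the median. Med23 was at least 9.54-fold lower in KO (limma coefficient -3.97, SE 0.13, n = 3 pairs, adjusted p = 9.27e-06). In 10T1/2 cells it read 5.67 with MAL, 4.24 with the knockdown, 3.94 with both treatments and 5.45 in the control. Both arrays with the knockdown were below both without it, yet all 4 were above their array medians. The reading was 2.77-fold lower with the knockdown (coefficient -1.47, SE 0.22, n = 2 pairs), a difference that did not pass the threshold (limma adjusted p = 0.0689). In cultures measured whole, fewer cells with a transcript and less of it per cell cannot be told apart.

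**Figure D1:**
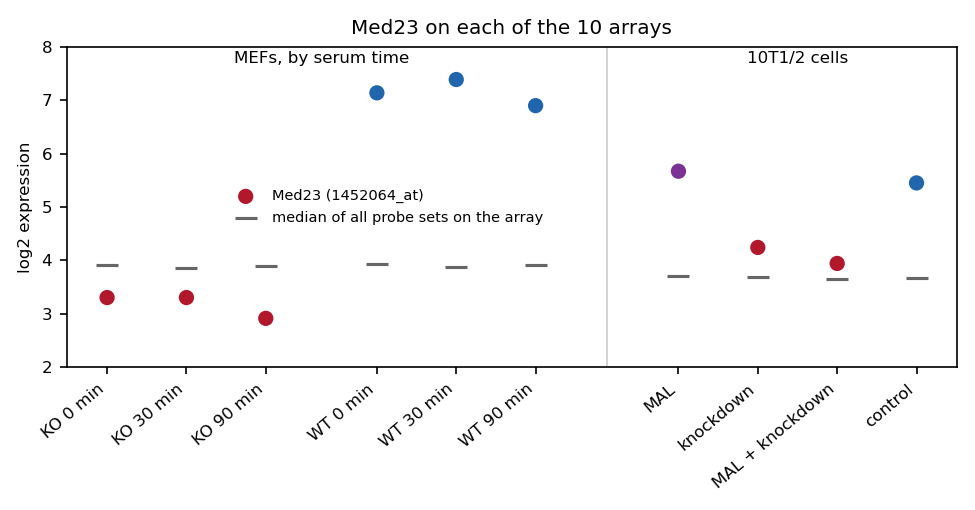
Log2 expression of Med23 on each of the 10 arrays (points), with the median of all probe sets on the same array (dashes); red points are arrays with Med23 loss, blue points WT or control, and the purple point MAL alone. The 3 KO points lie below the dashes, and the knockdown points at 4.24 and 3.94 lie above them.

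The comparison of KO with WT MEFs asked what else in Mediator differs when Med23 is absent. Besides Med23, 8 Mediator genes were higher in KO and 8 were lower. Of the 33 genes, 51.5% were called, and 50% of the 32 without Med23, in a comparison that called 42.1% of the 11933 genes tested. The median coefficient of the 32 genes was 0.01, against -0.02 over all genes. The differences thus went both ways in about equal number. The KO and WT arrays did not overlap for 18 of the 33 genes, 8 above and 10 below, where 41.2% of all tested genes were separated in either direction. Med25 and Med8 were separated without being called, and Med13 was called although its groups overlapped.

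**Figure D2:**
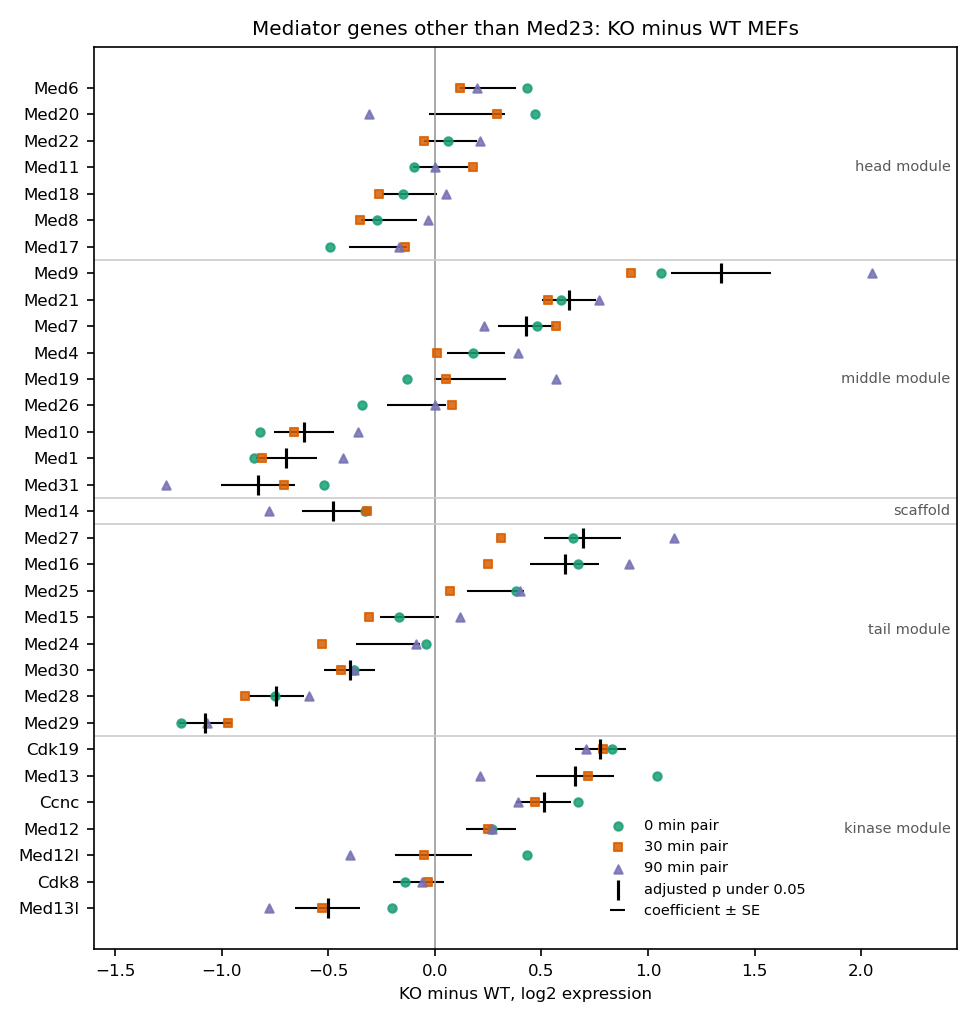
KO minus WT log2 expression of the 32 Mediator genes other than Med23, by module, with the 0, 30 and 90 min pairs of arrays as symbols and the limma coefficient ± SE as a line; an upright tick marks an adjusted p under 0.05. No head module gene is ticked, Med9 has the highest coefficient (1.34) and Med29 the lowest (-1.08).

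The head module, which sits closest to the polymerase, had 0 of 7 genes called in either direction (and 0 at an unadjusted p under 0.05 in limma). The share of all genes called, 42.1%, is the background for this and each further module, and differences between modules were not tested. Its coefficients lay between -0.27 for Med17, the scaffold subunit of the head, and 0.25 for Med6. Med8, Med11, Med18, Med20 and Med22 lay between them.

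In the middle module 3 of 9 genes were higher and 3 lower. Med9 read 7.51, 7.47 and 7.28 in KO cells at 0, 30 and 90 min, against 6.45, 6.55 and 5.23 in WT cells (1449448_at). All KO values were above all WT values, and the WT value at 90 min was the lowest. Med9 was 2.54-fold higher in KO (coefficient 1.34, SE 0.23, n = 3 pairs, limma adjusted p = 0.00578). Med21 and Med7, which form the hinge of the middle module as a pair, were both higher. Med21 read 7.52, 7.76 and 7.34 in KO cells, against 6.93, 7.23 and 6.57 in WT cells (1425806_a_at, coefficient 0.63, adjusted p = 0.00943). Med7 read 7.89, 8.24 and 8.09 in KO cells, against 7.41, 7.67 and 7.86 in WT cells (1417564_at, coefficient 0.43, adjusted p = 0.043). For both genes the lowest KO value was above the highest WT value, by a narrow margin in Med7.

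Med1 and Med31 were on the other side. Med1, the subunit that nuclear receptors bind, read 8.62, 8.74 and 8.87 in KO cells at 0, 30 and 90 min, against 9.47, 9.55 and 9.30 in WT cells (1421907_at, coefficient -0.70, SE 0.14, limma adjusted p = 0.00997). The groups did not overlap, and 4 further Med1 probe sets that lay above the array median on all MEF arrays had the same sign. Med31 read 8.30, 8.32 and 7.28 in KO cells, against 8.82, 9.03 and 8.54 in WT cells (1417387_at, coefficient -0.83, SE 0.17, adjusted p = 0.0112). Its KO value at 90 min stood about a log2 unit below the other KO values. Med10 read 8.35, 8.36 and 8.82 in KO cells, against 9.17, 9.02 and 9.18 in WT cells (1448295_at, coefficient -0.61, adjusted p = 0.0159). Med4 read 7.61, 7.52 and 7.51 in KO cells, against 7.43, 7.51 and 7.12 in WT cells. Med4, Med19 and Med26, a subunit that brings in elongation factors, had coefficients of 0.19, 0.16 and -0.09 and were not called. Med14, the scaffold, read 7.42, 7.39 and 7.45 in KO cells, against 7.75, 7.71 and 8.23 in WT cells (1437632_at, coefficient -0.48, adjusted p = 0.0422). The KO values lay close together below all WT values, but 2 of 3 further Med14 probe sets above the median had the opposite sign.

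Of the 9 tail genes, 2 were higher and 4 lower in KO, Med23 among the 4. Recent structures place Med27, Med28, Med29 and Med30 next to the tail, while older schemes put some of them in the head. Med29 had the largest decrease after Med23: it read 6.07, 6.45 and 6.45 in KO cells at 0, 30 and 90 min, against 7.26, 7.42 and 7.52 in WT cells (1421903_at). The groups were apart by most of a log2 unit at their nearest values. Med29 was 2.11-fold lower in KO (coefficient -1.08, SE 0.12, n = 3 pairs, limma adjusted p = 0.00118). Med28 read 9.98, 9.88 and 9.79 in KO cells, against 10.73, 10.77 and 10.38 in WT cells (1416508_at, coefficient -0.74, SE 0.13, adjusted p = 0.00564). Med30 read 9.05, 8.90 and 8.71 in KO cells, against 9.43, 9.34 and 9.09 in WT cells (1448917_at, coefficient -0.40, adjusted p = 0.0384). Both were lower in KO in every pair, and the highest KO value of Med30 lay just under its lowest WT value.

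Med27 and Med16 went the other way. Med27 read 7.19, 7.37 and 7.59 in KO cells at 0, 30 and 90 min, against 6.54, 7.06 and 6.47 in WT cells (1432462_a_at, coefficient 0.69, SE 0.18, limma adjusted p = 0.0235). Med16, which lies beside Med23 and Med24 in the tail, read 7.69, 7.73 and 7.58 in KO cells, against 7.02, 7.48 and 6.67 in WT cells (1438416_at, coefficient 0.61, SE 0.16, adjusted p = 0.0258). For both, the WT array at 30 min came nearest to the KO values. Med24 had a coefficient of -0.22, and Med15, a target of activators of lipid genes and of Smad signalling, had -0.12. Med25, which ETS factors of the PEA3 group bind, had 0.28 (limma adjusted p = 0.14), with 7.66, 7.48 and 7.54 in KO cells, against 7.28, 7.41 and 7.14 in WT cells. These 3 tail genes were not called.

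Of the 7 genes of the kinase module, 3 were higher and 1 lower in KO. The kinase paralogs differed in their values: Cdk19 read 8.63, 8.55 and 8.09 in KO cells at 0, 30 and 90 min, against 7.80, 7.76 and 7.38 in WT cells (1434997_at). Cdk8 read 7.54, 7.91 and 7.71 in KO cells, against 7.68, 7.94 and 7.77 in WT cells (1460389_at). Cdk19 was 1.71-fold higher in KO (coefficient 0.78, SE 0.12, n = 3 pairs, limma adjusted p = 0.00372), and a second Cdk19 probe set differed by 0.58. Cdk8 was lower by 0.14 or less in each pair (coefficient -0.08, SE 0.12, adjusted p = 0.644), and the difference between the paralogs was not tested. Ccnc, the gene of cyclin C that both kinases need, read 6.38, 6.45 and 6.0 in KO cells, against 5.71, 5.98 and 5.61 in WT cells (1428570_at, coefficient 0.51, SE 0.13, adjusted p = 0.0215).

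The paralogs that tie the kinase to the core had coefficients of opposite sign. Med13 read 8.99, 8.94 and 9.17 in KO cells at 0, 30 and 90 min, against 7.95, 8.22 and 8.96 in WT cells (1453160_at, coefficient 0.66, SE 0.18, limma adjusted p = 0.0297). The WT value at 90 min reached into the KO range, and the pair at 90 min differed least. Med13l read 10.03, 10.08 and 9.86 in KO cells, against 10.23, 10.61 and 10.64 in WT cells (1434603_at, coefficient -0.50, SE 0.15, adjusted p = 0.0401). Its groups were apart, with the smallest difference at 0 min. Med12, the subunit that activates the kinase, read 8.06, 8.34 and 7.94 in KO cells, against 7.79, 8.09 and 7.67 in WT cells (1425585_at, coefficient 0.26, adjusted p = 0.126). Med12l read 5.85, 5.74 and 4.86 in KO cells, against 5.42, 5.79 and 5.26 in WT cells (1452864_at, coefficient -0.01, adjusted p = 0.983). Neither Med12 nor Med12l was called.

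Beside these differences, 11 further probe sets of called genes lay above the array median on all 6 MEF arrays. They belonged to 5 genes, and 9 of the 11 had the sign of the probe set described above. Med9, Med28, Med29 and Ccnc also had further probe sets, but none above the median on all 6 MEF arrays. By KO minus WT mean, that of Med9 differed by only 0.05, and those of Med29 by 0.04 and -0.03. That of Med28 differed by -0.61, and those of Ccnc by 0.75, 0.22, 0.41 and -0.05. The KO differences of Med9 and Med29 were thus seen in 1 probe set each. Of the 17 calls, 12 were lost when the fit left out the 0 min arrays, 11 when it left out 30 min, and 4 when it left out 90 min. The share of all genes called was 22.7%, 20.4% and 42.2% in these fits. Med23, Med9, Med29 and Cdk19 were called in each of these fits. Med13l and Med14 were not called with the mean of all their probe sets, nor Med7 with quantile normalization, and 1 fit over all 10 arrays lost 5 calls (Med7, Med13, Med13l, Med14 and Med30). The mean of all probe sets also gave smaller coefficients for genes that stayed called: 0.70 for Med9, -0.35 for Med29, -0.42 for Med1 and 0.35 for Med13.

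Markers of fibroblasts and of other cell types moved with genotype. Of 9 tested fibroblast markers 2 were higher and 4 lower in KO, 66.7%, against 42.1% of all genes. Col1a2 read 13.39, 13.4 and 13.31 in KO cells at 0, 30 and 90 min, against 9.55, 9.76 and 9.13 in WT cells. S100a4 read 12.08, 11.85 and 11.84 in KO cells, against 13.89, 13.91 and 13.79 in WT cells. Sox2 read 2.61, 2.99 and 2.87 in KO cells at 0, 30 and 90 min, against 8.33, 7.61 and 9.11 in WT cells, and the mean of 4 neural markers lay between 5.03 and 5.15 in KO and between 6.39 and 6.84 in WT. Map2, another of the 4, went the other way, with 8.47, 8.30 and 7.67 in KO cells, against 7.58, 7.40 and 6.97 in WT cells. The mean of 4 contractile smooth muscle markers lay between 7.98 and 8.99 in KO and between 6.11 and 6.51 in WT, with Myh11 below the array median on every MEF array. Among 5 endothelial markers Emcn read 5.38, 4.95 and 5.27 in KO cells, against 3.10, 2.73 and 2.92 in WT cells, while Pecam1, Cdh5 and Tek were below the median on all MEF arrays. Among 5 macrophage markers Cd68 read 2.96, 3.27 and 3.22 in KO, against 4.0, 4.47 and 4.22 in WT, and Ptprc, Adgre1 and Itgam were below the median throughout. The part of these differences between the lines in the Mediator values was not tested.

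The partners of Mediator at promoters gave the setting. Of 10 tested RNA polymerase II subunit genes, 3 were lower in KO and 0 higher. Polr2b, the subunit that shares the active site with the largest one, had a coefficient of -0.94 (SE 0.14, limma adjusted p = 0.00297), Polr2g had -0.83 and Polr2j -0.70. Among 17 general transcription factor genes 3 were higher and 4 lower, with Mnat1, a subunit of the Cdk7 kinase complex, at 0.76 and the TFIIH helicase gene Ercc3 at -0.61. Among 13 genes of pause release and elongation 1 was higher (Nelfb, 0.82) and 3 lower: Nelfcd at -1.35, Ccnt1, the cyclin of the elongation kinase Cdk9, at -1.20, and Hexim1, its inhibitor, at -0.53. The shares called were 30% of polymerase genes, 41.2% of general factor genes and 30.8% of elongation genes, beside 42.1% of all genes. These shares rest on few genes, and differences between them were not tested.

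Of 5 genes of factors that act through Med23 or with it, Srf was higher in KO (0.61, SE 0.14, limma adjusted p = 0.0159), and Elk1 (-0.58, adjusted p = 0.0343) and Cebpb (-2.05, adjusted p = 0.000379) were lower. Cebpb, a regulator of early fat differentiation, read 8.71, 10.12 and 11.09 in KO cells at 0, 30 and 90 min, against 11.01, 12.37 and 12.68 in WT cells. It was lower in KO in every pair. Elk4 (-0.05) and Mrtfa (0.45), the gene of MAL, were not called.

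The serum series asked whether the complex itself is part of the serum response. At 30 min 0 of the 33 Mediator genes were called and 0 had an unadjusted p under 0.05 in limma, where 0.251% of all genes were called. Coefficients lay between -0.52 for Med20 and 0.39 for Med26. At 90 min 0 of 33 were called, where 13.5% of all genes were called. At an unadjusted p under 0.05, 9 of the 33 passed, 8 of them with negative coefficients, and so did 3699 of all 11933 genes, 2546 of them with negative ones. The share of Mediator genes at this limit was no larger than that of all genes. The nearest to the threshold were Med17 (-0.62, adjusted p = 0.0591) and Med19 (-0.76, adjusted p = 0.0619). The only positive coefficient among the 9 was that of Med13 (0.60, adjusted p = 0.132). In KO cells the values of Med13 lay between 8.94 and 9.17 at all 3 times, whereas in WT cells they were 7.95, 8.22 and 8.96. The median coefficient of the 33 genes at 90 min was -0.21, and that of all genes was -0.11.

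The serum responses of the genotypes were set side by side from single arrays, with no test. A difference of at least 1 log2 unit between the KO and the WT response was seen in 0 of 33 Mediator genes at 30 min and 0 at 90 min, where 1.64% and 6.44% of all genes reached it. Med9 came closest. Its change at 90 min was 0.99 higher in KO than in WT, with 7.28 in KO cells and 5.23 in WT cells at that time.

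**Figure D3:**
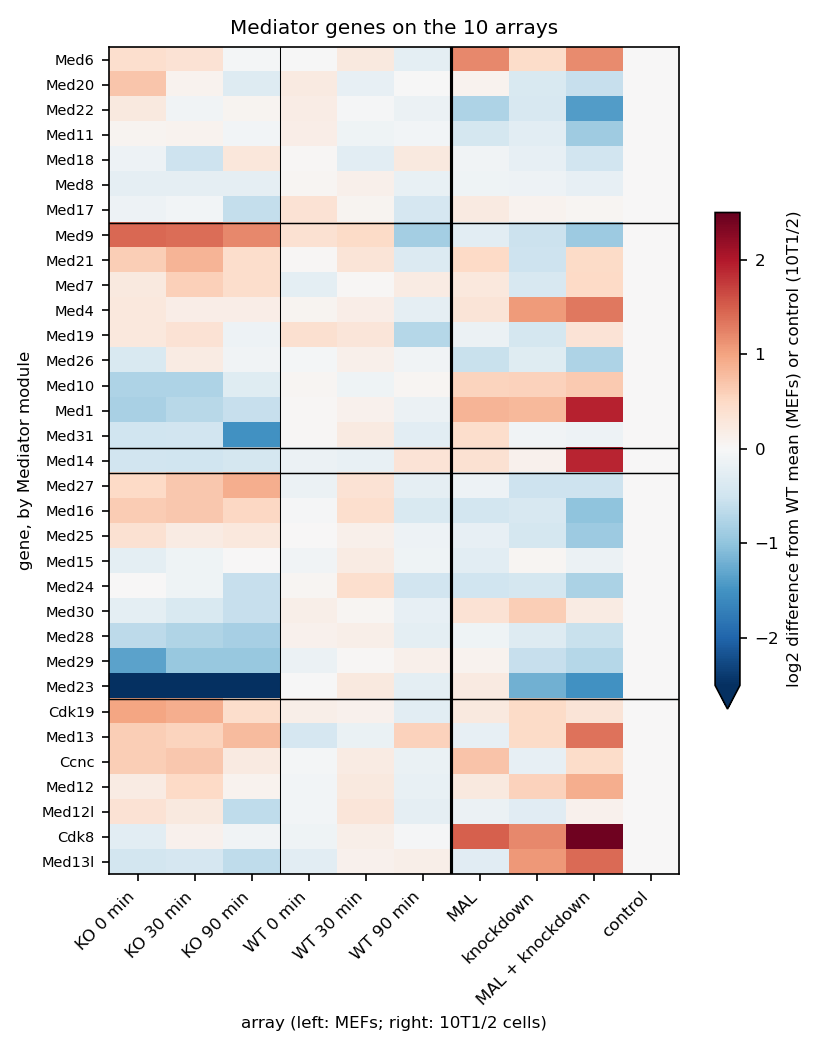
Log2 difference of each Mediator gene (rows, by module) on each array (columns) from the WT mean in the 6 MEF arrays and from the control in the 4 10T1/2 arrays; red is higher and blue lower, and the KO values of Med23 lie beyond the end of the scale. Med9 is red and Med29 blue on all KO arrays, and Cdk8, Med1, Med13l and Med14 are red on the array with both treatments.

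In 10T1/2 cells the knockdown called 0 of the 33 Mediator genes, where 0% of all 12440 genes were called and 3972 had an unadjusted p under 0.05 in limma. The adjusted p of Med23, 0.0689, was the lowest reached, but other genes shared it, Med13l and Elk4 among them. Among the Mediator genes 6 had an unadjusted p under 0.05 with a positive coefficient and 7 with a negative one. The positive ones were Med13l (1.39), Cdk8 (1.08), Med4 (1.03), Med13 (1.02), Med1 (0.95) and Med12 (0.62), so 4 of them belong to the kinase module. The negative ones besides Med23 were Med29 (-0.69), Med9 (-0.59), Med25 (-0.57), Med20 (-0.52), Med22 (-0.52) and Med16 (-0.48). With 1 fit over all 10 arrays, which takes its spread from both lines, all 6 positive genes, Med23 and Med29 were called, where 20.4% of all genes were. In that fit without the MAL array, or without the array with both treatments, 0 Mediator genes were called for the knockdown, and the share of all genes called was 1.37% and 1.36%.

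The values show how these genes were spread over the 4 arrays. Med13l read 8.17 with MAL, 9.53 with the knockdown, 9.87 with both treatments and 8.45 in the control. Both knockdown arrays stood more than a log2 unit above both arrays without it, and a second Med13l probe set read 7.07, 8.34, 8.65 and 7.40 in the same order. Cdk8 read 7.07 with MAL, 6.79 with the knockdown, 8.02 with both and 5.58 in the control. Each treatment alone was above the control, and both together were highest. Med1 read 7.91, 7.88, 9.0 and 7.07 in that order, with the same ranking of both treatments above each alone and each alone above the control. The knockdown coefficient of Med1 was 0.24 with the mean of all its probe sets (limma adjusted p = 0.344). Med4 read 7.36 with MAL, 8.10 with the knockdown, 8.35 with both and 7.03 in the control, and Med12 read 6.65, 6.98, 7.31 and 6.41. In both genes the knockdown arrays were above the arrays without it.

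The other genes that differed between KO and WT MEFs, or between the lines, are given for these 4 arrays as well. In the order MAL, knockdown, both treatments and control, Med9 read 8.95, 8.68, 8.32 and 9.22, Med29 read 8.10, 7.44, 7.30 and 8.01, and Med25 read 7.95, 7.72, 7.24 and 8.15. All 3 were lower on both knockdown arrays than on either array without it. Med16 read 9.12, 9.17, 8.57 and 9.58 in that order, and Med27 read 8.40, 8.01, 8.01 and 8.52. Both were highest in the control. Med21 read 8.19, 7.18, 8.16 and 7.69, and Med7 read 7.88, 7.21, 8.10 and 7.61, with the knockdown alone lowest in both. Med10 read 9.91, 9.94, 10.02 and 9.36, and Med30 read 9.42, 9.66, 9.26 and 9.05, with the control lowest in both. Med28 read 10.68, 10.46, 10.24 and 10.79, Med31 read 8.73, 8.21, 8.17 and 8.30, and Cdk19 read 7.83, 8.05, 7.91 and 7.58. Med12l lay between 3.79 and 4.17, close to the array medians.

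MAL called 0 of 33 Mediator genes, where 0.0643% of all genes were called. At an unadjusted p under 0.05 in limma, 3432 of all 12440 genes passed, 1726 with positive and 1706 with negative coefficients. Of the Mediator genes, 6 had positive coefficients, led by Cdk8 (1.36, SE 0.19, adjusted p = 0.0678), Med14 (1.09) and Med1 (0.98), followed by Med6 (0.96), Med21 (0.74) and Ccnc (0.68). Another 4 had negative ones: Med22 (-0.88), Med11, Med16 and Med26. Ccnc read 6.93 with MAL, 6.02 with the knockdown, 6.67 with both treatments and 6.22 in the control. Cdk8 and Ccnc, the catalytic pair of the kinase module, were thus both above the control on the MAL arrays, and in the fit over all 10 arrays both were called for MAL (adjusted p = 0.00396 and 0.0279), where 17.2% of all genes were. Ccnc was not called in any of the 4 fits that left out a 10T1/2 array (limma adjusted p between 0.12 and 0.124) nor with quantile normalization (0.078), and the mean of its probe sets gave a coefficient of 0.11 (adjusted p = 0.712). Cdk8 was called in all 4 fits that left out an array.

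With both treatments, 7 Mediator genes were at least 1 log2 unit above the control and 3 below it, where 29.5% of all genes passed that difference in either direction. This sets 1 array against 1 array and has no test. Cdk8 was 2.44 above the control, Med1 1.93, Med14 1.91, Med13l 1.42, Med13 1.36, Med4 1.32 and Med6 1.18. The differences of those below it were -1.51 for Med23, -1.39 for Med22 and -1.01 for Med16. The difference from the sum of the single treatments reached 1 log2 unit in Med14 (1.42) and Med13 (1.10), where 7.18% of all genes reached it either way. Med14 read 5.59 with MAL, 5.32 with the knockdown, 7.12 with both treatments and 5.21 in the control. Med13 read 5.11, 5.79, 6.68 and 5.32 in that order. In both genes the array with both treatments stood apart from the other 3. A second Med13 probe set had the same pattern, with 3.47, 3.99, 5.79 and 3.83, while a second Med14 probe set had 3.86, 3.75, 4.07 and 3.11.

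Technical readings moved with these arrays. The median of the poly-A spike-in controls, RNAs added before labelling, was 7.61 with MAL, 7.68 with the knockdown, 6.97 with both treatments and 8.26 in the control. Its order is the reverse of that of Cdk8 between both treatments, single treatments and control. It is the same as that of Med16 and Med22, which were lowest with both treatments and highest in the control. The median of the hybridization controls, added after labelling, was 9.21 with MAL, 9.27 with the knockdown, 9.02 with both treatments and 9.43 in the control, which is the same order as the spike-ins. The 3′ minus 5′ difference of the pyruvate carboxylase probe sets was 1.39, 2.85, 2.19 and 2.81 on these arrays, lower on both MAL arrays. The same difference varied little for Gapdh (-0.07, 0.01, -0.08 and -0.12) and for Actb (0.24, 0.33, 0.29 and 0.27). The part of these readings in the 10T1/2 values was not tested. In the MEFs the poly-A median lay at 5.99, 6.58 and 6.10 on KO arrays at 0, 30 and 90 min, against 5.87, 6.21 and 5.69 on WT arrays. It was higher in KO in each of the 3 pairs, and its part in the KO differences was not tested.

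**Figure D4:**
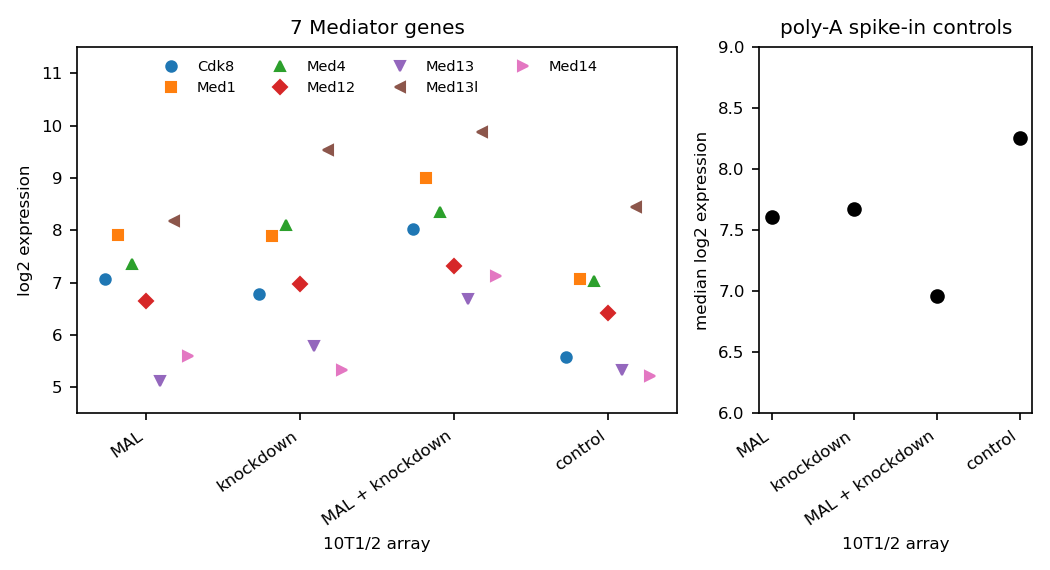
Log2 expression of Cdk8, Med1, Med4, Med12, Med13, Med13l and Med14 on the 4 10T1/2 arrays (left), and the median log2 expression of the poly-A spike-in controls on the same arrays (right). The 7 genes are a selection, and each is highest with both treatments, where the spike-in median is lowest (6.97). Other Mediator genes, not shown, are lowest there, such as Med22 with 7.54, against 8.93 in the control.

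The KO coefficient in MEFs, in which line and genotype cannot be told apart, was then set against the knockdown coefficient in 10T1/2 cells. Their difference, KO minus knockdown, was tested in 1 limma fit over all 10 arrays. This difference was called in 13 of 33 Mediator genes, 6 positive and 7 negative, in a comparison that called 29.3% of all 13034 genes tested. Med23 itself is among the negative ones, but its KO readings lay below the array medians, so its difference is not an exact value. No head module gene was called, against 5 of 9 middle genes, 4 of 9 tail genes, Med14 and 3 of 7 kinase module genes.

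Among the called genes, Med1, Med10, Med13l, Med14 and Cdk8 had coefficients of opposite sign, negative in KO and positive with the knockdown. For Cdk8 the KO coefficient of -0.08 was smaller than its SE of 0.12 (limma adjusted p = 0.644). The knockdown coefficients of Med10 (0.345, SE 0.21) and Med14 (0.82, SE 0.37) had unadjusted limma p-values of 0.165 and 0.0799. A reversal between the lines was thus not shown for Cdk8, Med10 or Med14. Nor was it shown for Med1 or Med13l, whose knockdown coefficients did not pass the threshold (limma adjusted p = 0.0768 and 0.0689). With the mean of all probe sets, the KO coefficient of Med13l was -0.28 (limma adjusted p = 0.122). The KO coefficient of Med13l was -0.50 and its knockdown coefficient 1.39 (difference -1.89, SE 0.28, limma adjusted p = 0.00243). For Med1 they were -0.70 and 0.95 (difference -1.65, SE 0.23, adjusted p = 0.00209), and for Med14 -0.48 and 0.82 (difference -1.30, SE 0.40, adjusted p = 0.044). With the mean of all probe sets the difference of Med1 was -0.66 (adjusted p = 0.0215). The value for Med14 was -0.59 without the MAL array or without the array with both treatments, -2.01 without the control or the knockdown array, and -0.44 with the mean of all probe sets. The differences of Cdk8 (-1.16), Med10 (-0.96) and Med4 (-0.84) were negative too. On the other side Med9 had 1.34 in KO and -0.59 with the knockdown (difference 1.93, SE 0.35, adjusted p = 0.00545). Med27 (1.14), Med16 (1.09), Med21 (0.90), Med25 (0.85) and Ccnc (0.74) were likewise more positive in KO. Med29 had negative coefficients in both lines, -1.08 in KO and -0.69 with the knockdown, and their difference of -0.39 was not called (adjusted p = 0.201). Med13 had positive ones, 0.66 and 1.02, with a difference of -0.36 (adjusted p = 0.51). Med23, Med1, Med9, Med13l and Cdk8 were called in every fit that left out a 10T1/2 array or a serum time, and each of the other 8 missed the threshold in at least 1 such fit. Of these, Med4, Med14, Med16, Med25, Med27 and Ccnc did so without the MAL array or without the array with both treatments, and Med4, Med10, Med21, Med27 and Ccnc without the control or without the knockdown array.

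**Figure D5:**
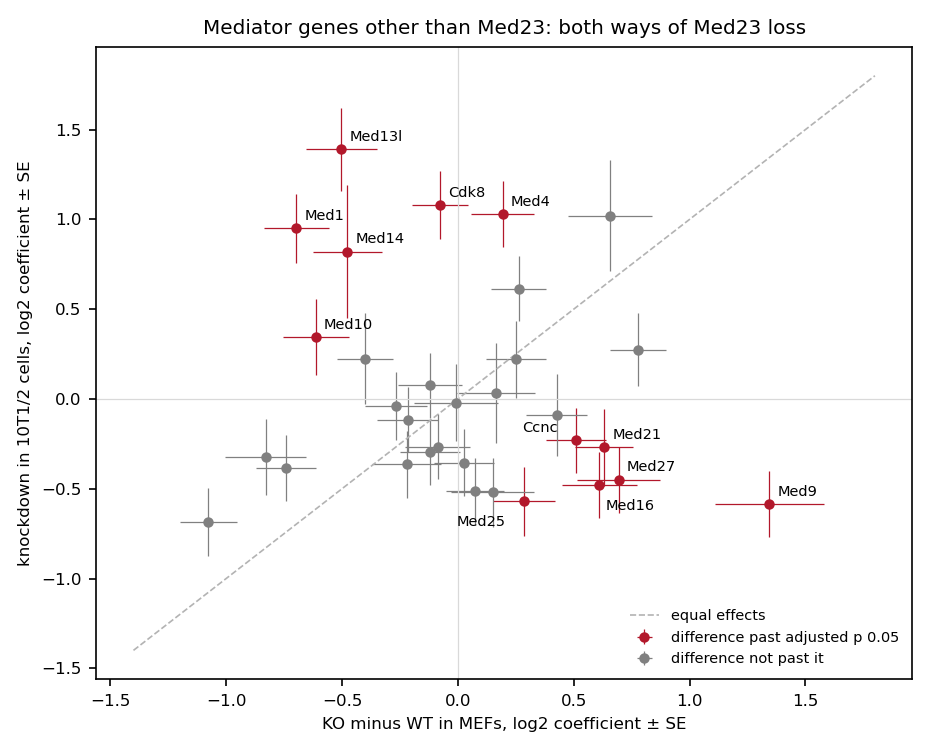
KO coefficient in MEFs (x axis) and knockdown coefficient in 10T1/2 cells (y axis), both in log2 units with SE bars, for the 32 Mediator genes other than Med23; red points are genes whose difference passed an adjusted p of 0.05, and the dashed line marks equal effects. Med13l, Med1 and Med14 lie upper left and Med9 lower right.

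Levels of Mediator transcripts were also set side by side between the 10T1/2 control and the WT MEFs, the MEFs at all 3 serum times. These values come from 1 deposited table, and the labels do not say whether both lines shared a normalization. The 10T1/2 control was at least 1 log2 unit above all 3 WT MEF arrays for 7 of 33 genes, where 20.5% of all genes were, and below all 3 by as much for 8 of 33, where 14.9% were. The 7 were Med9, Med11, Med15, Med16, Med20, Med22 and Med27, with Med9 at 9.22 in the 10T1/2 control, against 6.45, 6.55 and 5.23 in WT MEFs. The 8 were Med1, Med12, Med12l, Med13, Med13l, Med14, Med23 and Cdk8, so 5 of the 7 kinase module genes were among them. Med13 stood at 5.32 in the 10T1/2 control, against 7.95, 8.22 and 8.96 in WT MEFs. The median difference of 10T1/2 control and WT mean was 0.24 over the Mediator genes and 0.18 over all genes.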

How the data were processed

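The values deposited by the authors are log2 expression of 45101 probe sets on each of 10 arrays of total RNA. RMA and MAS5 are named per the submitters' processing notes, without roles or versions. The log2 scale was read from the values, which ran from 1.85 to 14.7. Neither labels nor headers say whether all arrays shared a normalization. Groups came from the sample labels. No pair of arrays was identical (highest correlation 0.989).

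Gene names came from the platform annotation, updated by Entrez identifier to RefSeq of GRCm38.p6: 34741 of 34945 probe sets with 1 symbol matched, and 932 with several were left out. Each gene was read from the probe set with the highest mean. A gene was tested where its highest value passed the median of all probe sets (3.90 in MEFs, 3.67 in 10T1/2 cells, 3.81 over all arrays). limma 3.58.1 in R 4.3.3 fitted genotype and serum time in MEFs (2 residual degrees of freedom), MAL and knockdown in 10T1/2 cells (1), and line, serum time and treatments over all arrays (3). Two-sided p-values were corrected by Benjamini-Hochberg over all genes tested, at 0.05. The fit was run on simulated data with known changes, as a check of the computation. That run cannot show whether the calls in these data are right. Single arrays were compared at 1 log2 unit with no test. Precision is limited by how many arrays there are.

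The Mediator genes and all lists were chosen with earlier results of these data known. All 33 genes are named. Values per array are given for Med23, for genes past the threshold in a main comparison, for the kinase module genes, and for further genes chosen after their values were seen. Alternatives were quantile normalization, the mean of all probe sets, no filter, an intensity trend in the prior, other sets of arrays and no serum term.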

Additional observations from a re-analysis of the deposited data

Results flagged for a closer look

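For 13 Mediator genes the KO coefficient in MEFs differed from the knockdown coefficient in 10T1/2 cells. Line and genotype cannot be told apart in the KO coefficient. The limma test was of the difference itself, KO minus knockdown over all 10 arrays, with values in log2 units. Negative differences were -1.89 for Med13l, -1.65 for Med1, -1.30 for Med14, -1.16 for Cdk8, -0.96 for Med10 and -0.84 for Med4. Med23 had -2.50, a value that is not exact because its KO readings lay below the array medians. Positive differences were 1.93 for Med9, 1.14 for Med27, 1.09 for Med16, 0.90 for Med21, 0.85 for Med25 and 0.74 for Ccnc. With the MAL array left out of this fit, 2 positive and 6 negative differences were past the threshold, while the share of all genes past it was 29.3% with all arrays and 17.6% without that one.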

How the results depend on the processing

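No Mediator gene changed sign past the threshold under any alternative. KO against WT in MEFs called 8 genes higher and 9 lower, against 2 and 3 without the 0 min arrays (22.7% of all genes, against 42.1% in the reported fit), 4 and 2 with 30 min left out (20.4%), and 2 and 5 without a term for serum time (23.9% of all genes). Med23, Med9, Med29 and Cdk19 were called under every alternative run, with Med9 at 0.70 and Med29 at -0.35 by the mean of all probe sets. The knockdown called none, against 5 higher and 2 lower with quantile normalization (19.9% of all genes, against 0% in the reported fit), 2 and 1 with the mean of all probe sets (2.9%), 1 and 1 with an intensity trend (4.82%), and 6 and 2 in 1 fit over all 10 arrays (20.4%). The Med23 knockdown coefficient was then -1.56, -1.47, -1.47 and -1.47, past the threshold each time (adjusted p between 0.0011 and 0.0464). MAL called none, against 4 higher and 1 lower with quantile normalization (16.2%), 1 higher with the mean of probe sets (5%), 1 higher with the trend (4.36%), and 6 and 1 over all arrays (17.2%). With the trend, Med19 was called lower at 90 min of serum (1 gene).

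The following were added after seeing the data. The fit over all arrays called 6 higher and 1 lower for the knockdown without the control array and likewise without the knockdown array, with Med23 at -1.73 both times. For MAL it called 4 higher and 1 lower without the control or the MAL array, and 2 higher without the knockdown array or the array with both treatments. The difference of KO and knockdown effects, 6 positive and 7 negative, became 3 and 4 without the 0 min arrays, 4 and 4 with 30 min left out, 3 and 5 without the control (24.4% of all genes) or the knockdown array (24.2%), and 2 and 6 without the MAL array (17.6%) or the array with both treatments (17.4%). The cause of these shifts was not tested, beyond the fewer arrays in each fit. No paired analysis was possible because no condition had a second array to match by replicate number. Serum time, which matches the KO and WT arrays, was a term of the reported fit.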
